A study of Mus musculus with 21 samples.

Results

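The 8 genes described here encode the ADAR enzymes, which edit RNA, and the proteins of the innate immune system that recognise double-stranded RNA. They were chosen by name, as Adar, Adarb1, Adarb2, Ifih1, Ddx58, Eif2ak2, Mavs and Zbp1, with earlier results of these data known. All 8 were found in both deposited tables, among 23587 genes in the table of the mice with 2 drivers and 22918 genes in the table of the mice with 1 driver. RNA was measured by sequencing in 21 libraries of cells sorted from the mouse main olfactory epithelium, the tissue of the nose that holds the olfactory sensory neurons (OSN).

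Every mouse carried a tetracycline-responsive transgene for the red fluorescent protein mCherry together with HyperTRIBE, an RNA-editing domain, and no library analysed here came from a mouse without it. The transgene held HyperTRIBE alone (tetO-HyperTRIBE_mCherry, called HT here) or joined to the RNA-binding protein Mex3a (tetO-Mex3a_HyperTRIBE_mCherry, called MexHT). It was switched on by the transactivator tTA from the gg8 driver, which is active in immature OSN, or from gg8 and OMP drivers together (gg8tTA; OMPtTA), the second of which is active in mature OSN. With both drivers there were 3 HT OSN, 6 MexHT OSN, 3 HT mCherry-negative and 5 MexHT mCherry-negative libraries, and with gg8tTA alone 2 MexHT OSN and 2 MexHT mCherry-negative libraries. Mouse age was not given in the sources used here. Per the labels, the mCherry-negative cells came from the same mouse as the OSN with the same replicate number. The negative cells are therefore a mixture that also holds neurons without visible mCherry: 10 markers of mature OSN summed to 4789 to 10289 TPM in HT and 431 to 6580 TPM in MexHT mCherry-negative libraries. TPM is the level of a transcript per length, scaled to a fixed total per library, so levels of different genes can be compared. In such bulk samples, fewer cells of a type and less RNA per cell cannot be told apart.

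ADAR enzymes turn adenosine into inosine in double-stranded RNA, and editing by Adar keeps a cell's own paired RNA from being taken for that of a virus. The cytoplasmic receptors MDA5 (Ifih1) and RIG-I (Ddx58) bind long or uncapped double-stranded RNA and signal through the mitochondrial adaptor Mavs to interferon genes. PKR (Eif2ak2) stops translation when it binds double-stranded RNA, and Zbp1 binds left-handed Z-form nucleic acid and starts cell death. The catalytic domain of HyperTRIBE is itself taken from an ADAR enzyme. Neither table held a gene name for mCherry or HyperTRIBE, and whether reads of the transgene were counted under Adar was not tested.

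Interferon switches many of these genes on through a promoter element whose core reads GAAA, any 2 bases, GAAA. RefSeq promoter windows (build GRCm38.p6, 250 bases before to 50 after a gene's start) were found for 7 of the 8 genes, and the core, searched on both strands, was present in 3 of them. All matches found are shown. Whether the element has a part in the levels given below was not tested. Each line gives 30 bases read along the gene, which in all 3 lies on the minus strand, with the core in capitals. The Ddx58 core runs against the gene.
Ifih1, chr2:62646206-62646235: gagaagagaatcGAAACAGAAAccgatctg
Ddx58, chr4:40239806-40239835: gccctgaggcagTTTCGATTTCctatggcc
Eif2ak2, chr17:78882537-78882566: ggagtccgccggGAAAACGAAAcagaagag
The core began 33 bases into the Ifih1 gene, 3 bases into Ddx58 and 19 bases into Eif2ak2, counted from 1 at the first transcribed base. The 3 windows of Adar and the single windows of Adarb1, Adarb2 and Mavs did not contain these letters. Of all 32851 windows, 3.44% held the core, and of all 27025 genes 3.99% held it in a window. A match describes the letters only, and binding was not measured.

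Recovered depth was 7425287 to 15215673 counts per library, and 13917 to 18006 genes reached 1 TPM. All 10 macrophage and immune markers were present in each group, and their summed level was highest in HT OSN (1061 to 4674 TPM, the highest in replicate 3) and lowest in MexHT OSN with both drivers (234 to 472 TPM). In mCherry-negative cells the sum was 526.4 to 1109 TPM with the HT and 974 to 1406 TPM with the MexHT transgene. Mature OSN markers summed to 8040 to 12854 TPM in HT OSN and 1927 to 5934 TPM in MexHT OSN, and 8 immature OSN markers to 2474 to 2800 TPM and 4275 to 5009 TPM. Mex3a, the check on the transgene, was at 24, 32.1 and 61.5 TPM in HT OSN and at 328.5 (lowest), 348.3 (median) and 1271 (highest) TPM in the 6 MexHT OSN libraries.

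Adar (chr3:89714469-89753455, plus strand) encodes ADAR1, the enzyme that edits most sites in repeats. All OSN libraries held cells that express the transgene, whose catalytic domain is from an ADAR enzyme. Whether its reads were counted under Adar was not tested. The level counted under Adar was among the highest in the sorted neurons. It stood at 1033, 1049 and 1155 TPM in HT OSN, against 56.6, 51 and 57.2 TPM in the HT mCherry-negative cells of the same mice. The neurons were far above the negative cells in each mouse, and the groups did not overlap. Among all genes by TPM, Adar took ranks 46 to 57 in the neurons of these mice and ranks 4171 to 4824 in their negative cells. The difference was 19.3-fold on the scale of log2(TPM + 1), which is used for all fold changes here (log2 4.27 ± 0.10 SE, limma adjusted p = 3.52e-05), where 2.18% of 17027 genes were called higher in OSN.

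In MexHT mice with both drivers Adar was also higher in the neurons, but the 6 OSN libraries varied widely. They were at 377.3 (lowest), 407 (median) and 1198 (highest) TPM, and the 5 mCherry-negative libraries at 52.4, 63.3, 71.6, 62.5 and 90.5 TPM. Replicates 5 and 6, at 1198 and 742.5 TPM, stood above the other OSN libraries, which lay between 377.3 and 421.8 TPM, and no OSN library overlapped the negative cells. The difference was 7.78-fold (log2 2.96 ± 0.29 SE, limma adjusted p = 2.44e-06), where 35.8% of 16522 genes were called higher. With gg8tTA alone Adar was at 498.3 and 1418 TPM in neurons and at 50.5 and 42 TPM in negative cells, a difference of 17.9-fold (log2 4.16 ± 0.49 SE, limma adjusted p = 0.0159), where 1.12% of 16490 genes were called higher. That call rests on 2 libraries a group: the adjusted p was 0.272 without mCherry-negative replicate 1, 0.386 without mCherry-negative replicate 2 and 0.0749 without OSN replicate 2.

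**Figure D1:**
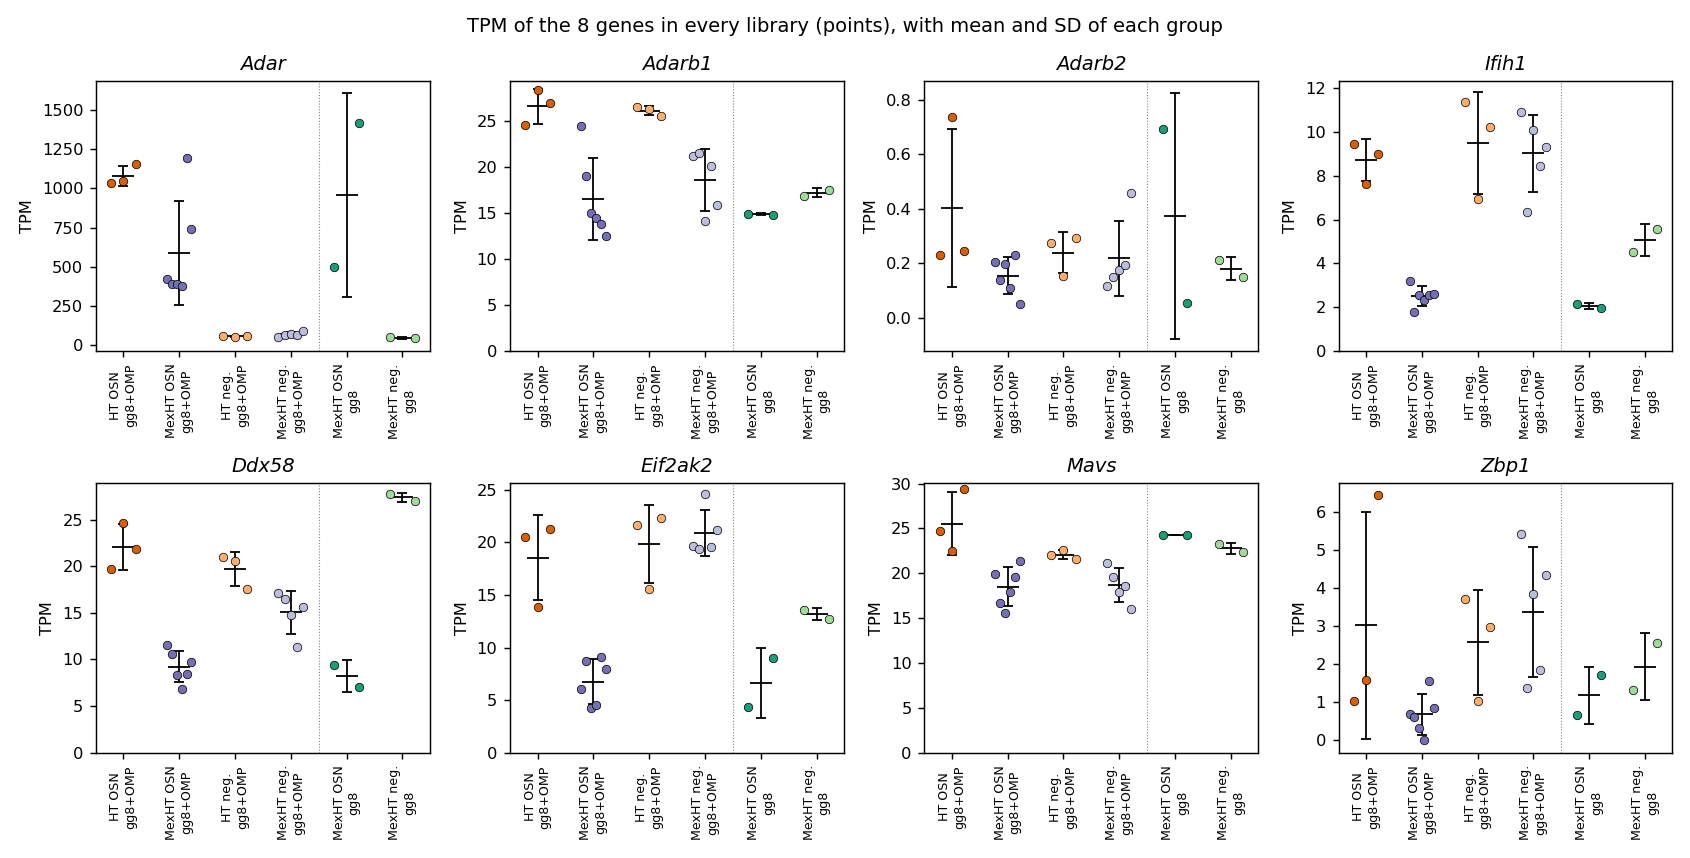
TPM of the 8 genes (vertical axes, linear) in each of the 21 libraries (points), grouped by transgene, sorted fraction and driver, with the mean and SD of each group as black bars and a dotted line between the separately scaled tables. Adar is at 377.3 TPM or more in each OSN library and at 90.5 TPM or less in each mCherry-negative (neg.) library, while Ifih1, Ddx58 and Eif2ak2 are low in MexHT OSN.

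Between the transgenes, Adar was 2.04-fold lower in MexHT OSN than in HT OSN (log2 -1.03 ± 0.35 SE, limma adjusted p = 0.0399). The groups overlapped, because MexHT OSN replicate 5 lay above all HT libraries. The call was lost when 1 of most libraries was left out: leaving out MexHT OSN replicate 1, 2, 3 or 4 gave an adjusted p of 0.0674, 0.0691, 0.0706 or 0.0728, and leaving out HT OSN replicate 1, 2 or 3 gave 0.0956, 0.0958 or 0.106. It was also lost with no filter on low genes (adjusted p = 0.0503) and with quantile normalization (0.0707). In mCherry-negative cells Adar was at 68.1 ± 14.2 TPM (SD, n = 5) in MexHT and 54.9 ± 3.45 TPM (n = 3) in HT mice, which overlapped (log2 0.28 ± 0.17 SE, limma adjusted p = 0.344). Ordered by mean, Adar in the 2-driver mice ran from HT OSN through MexHT OSN and MexHT mCherry-negative to HT mCherry-negative cells, and only the step from MexHT OSN to MexHT mCherry-negative cells exceeded the spread without overlap. The difference of the transgene effect between the fractions was -1.31 ± 0.42 SE (limma adjusted p = 0.0519), and -1.41 with adjusted p = 0.00752 when each mouse was fitted as a replicate block. It also passed with a minimum of 5 TPM (adjusted p = 0.0458), median-of-ratios scaling (0.0405) and voom (0.045). Counting every alternative, this interaction was called under only 7 of 24, with limma adjusted p from 0.00306 to 0.115.

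Adar and Mex3a varied together among the 6 MexHT OSN libraries. The 2 libraries with the highest Adar, replicates 5 and 6, also had the highest Mex3a, at 1271 and 678.8 TPM. Pearson's r of the log2 levels was 0.999 (exact permutation p = 0.00417, n = 6) and Spearman's rho 0.943 (exact permutation p = 0.0167). Without replicates 5 and 6, the farthest from the median of Mex3a, r was 0.940 (exact permutation p = 0.125, n = 4) and rho 0.800 (exact permutation p = 0.333). With so few libraries the test has little room to pass. Replicates 5 and 6 also had the lowest mature OSN marker sums (1927 and 3710 TPM) of the 6 libraries. Their sums of progenitor and cycling markers were the highest (880.3 and 442.8 TPM), and the part of these differences was not tested. Over all 6 libraries the 2 coefficients were the only relations tested, and adjusting over both leaves the larger p at 0.0167.

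The ratio of the Adar to the Mex3a level was near 1 in the neurons with the fused transgene: 0.943 to 1.18 in the 6 MexHT OSN libraries and 0.869 and 1.08 in the gg8 pair. In HT OSN, whose transgene holds no Mex3a, it was 18.8 to 43.1. In mCherry-negative libraries of all mice it lay between 0.239 and 1.93. Both genes were counted over long transcripts, 6039 bases for Adar and 5776 for Mex3a, as recovered from the TPM steps. The annotation places Chrnb2, a subunit of the nicotinic acetylcholine receptor, on the opposite strand across part of Adar, and the sources used here do not state whether counting used strand. Chrnb2 was at 20.6 to 64.6 TPM in OSN libraries, where its level was 0.0178 to 0.0847 of that of Adar.

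**Figure D2:**
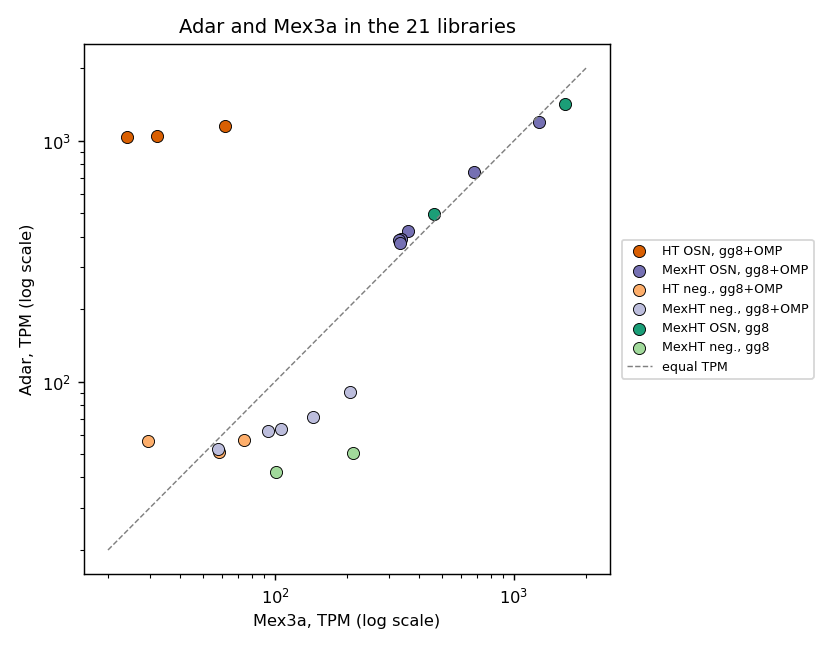
TPM of Adar (vertical, log scale) against TPM of Mex3a (horizontal, log scale) in the 21 libraries, coloured by group, with a dashed line at equal TPM. The 8 MexHT OSN libraries lie along the dashed line between 328.5 and 1632 TPM of Mex3a, and the 3 HT OSN libraries lie at 1033 to 1155 TPM of Adar and 24 to 61.5 TPM of Mex3a.

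Adarb1 (chr10:77290727-77418292, minus strand) encodes ADAR2, which edits the glutamate receptor transcript Gria2, and it was a minor part of the TPM counted under the ADAR genes. It was at 24.5, 28.3 and 26.9 TPM in HT OSN and at 12.4 (lowest), 14.7 (median) and 24.4 (highest) TPM in MexHT OSN. All MexHT OSN libraries lay below all HT OSN libraries, the nearest pair by only 0.13 TPM. The difference was 1.61-fold (log2 -0.69 ± 0.20 SE, limma adjusted p = 0.023). It was not called when an HT OSN library was left out, with adjusted p = 0.0564, 0.0856 and 0.0603 without replicates 1, 2 and 3.

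In mCherry-negative cells Adarb1 was at 26.5, 26.2 and 25.5 TPM in HT and 21.2, 21.5, 14.1, 20.1 and 15.9 TPM in MexHT mice. There too the groups did not overlap, but the difference did not pass the test (log2 -0.49 ± 0.17 SE, limma adjusted p = 0.218). OSN and mCherry-negative cells differed little: log2 0.02 ± 0.12 SE in HT, -0.18 ± 0.18 SE in MexHT mice with both drivers and -0.20 ± 0.42 SE with gg8tTA alone, none of which passed the test (limma adjusted p = 0.913, 0.42 and 0.767).

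Adarb2 (chr13:8202526-8768762, plus strand), an ADAR relative without known editing activity that is found in brain, was at most 0.735 TPM in the 21 libraries, on 1 to 19 recovered counts. It was under the mean of 1 TPM asked of a gene before testing, so no comparison was made. At or below a floor of 3 counts, where a level is not distinguished from none, were 3 of 6 MexHT OSN, 1 of 5 MexHT mCherry-negative and 1 of 2 gg8 OSN libraries. Adar made up 94.5% to 99% of the summed TPM of the 3 ADAR genes in OSN libraries and 65.9% to 84.7% in mCherry-negative libraries. Whether reads of the transgene are part of the Adar share was not tested.

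The 3 double-stranded RNA binders Ifih1, Ddx58 and Eif2ak2 did not differ by the test between HT OSN and HT mCherry-negative cells. All 3 were lower in MexHT OSN than in HT OSN. Their summed level was 46.2 to 52.1 TPM in HT neurons, and in negative cells 43.1 to 54 TPM with the HT and 39.4 to 49.5 TPM with the MexHT transgene. In MexHT OSN it was 13.7 to 21 TPM with both drivers and 15.9 and 18 TPM with gg8tTA. In this sum the MexHT OSN libraries of either table lay below all other libraries. Ddx58 by itself, at 11.3 to 17.2 TPM in MexHT negative cells with both drivers, lay there below all HT libraries of either fraction. Between the negative groups the Ddx58 difference did not pass the test (log2 -0.38 ± 0.17 SE, limma adjusted p = 0.246).

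Ifih1 (chr2:62595618-62646255, minus strand), which encodes MDA5, the sensor of long double-stranded RNA, was at 9.48, 7.63 and 9.01 TPM in HT OSN. In the 6 MexHT OSN libraries it was at 1.77 (lowest), 2.55 (median) and 3.18 (highest) TPM. The highest MexHT library was thus well under the lowest HT library. The difference was 2.79-fold (log2 -1.48 ± 0.20 SE, limma adjusted p = 0.000645). Against the mCherry-negative cells of the MexHT mice, at 10.9, 6.37, 10.1, 8.43 and 9.33 TPM, it was 2.85-fold (log2 -1.51 ± 0.17 SE, limma adjusted p = 9.7e-06), again with no overlap. In HT mice the negative cells had 11.4, 6.92 and 10.2 TPM, which overlapped HT OSN (log2 -0.09 ± 0.24 SE, limma adjusted p = 0.801).

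Ddx58 (chr4:40203777-40239825, minus strand), which encodes RIG-I, the sensor of uncapped RNA ends, was at 19.7, 24.7 and 21.9 TPM in HT OSN and at 6.88 (lowest), 9.05 (median) and 11.6 (highest) TPM in MexHT OSN. The groups did not overlap, and the difference was 2.27-fold (log2 -1.19 ± 0.18 SE, limma adjusted p = 0.00118). The MexHT mCherry-negative cells had 17.2, 16.5, 14.7, 11.3 and 15.6 TPM. Only the fourth of these fell within the range of the neurons, and the difference was 1.57-fold (log2 -0.65 ± 0.16 SE, limma adjusted p = 0.00323). In HT mice the negative cells, at 21, 20.6 and 17.6 TPM, overlapped the neurons (log2 0.15 ± 0.15 SE, limma adjusted p = 0.497).

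Eif2ak2 (chr17:78850504-78882572, minus strand) encodes PKR, the kinase that phosphorylates eIF2alpha when it meets double-stranded RNA. It was at 20.5, 13.9 and 21.3 TPM in HT OSN and at 4.26 (lowest), 7 (median) and 9.08 (highest) TPM in MexHT OSN. The groups did not overlap, and the difference was 2.56-fold (log2 -1.36 ± 0.27 SE, limma adjusted p = 0.00361). The MexHT mCherry-negative cells had 19.7, 19.3, 24.6, 19.6 and 21.2 TPM, all more than 2 times any MexHT OSN library, and the difference was 2.9-fold (log2 -1.54 ± 0.20 SE, limma adjusted p = 2.48e-05). In HT mice the negative cells had 21.7, 15.5 and 22.3 TPM and overlapped the neurons (log2 -0.10 ± 0.23 SE, limma adjusted p = 0.781). A long noncoding gene, Gm26637, is annotated on the opposite strand across part of Eif2ak2.

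For these 3 genes the difference of MexHT from HT was more negative in neurons than in mCherry-negative cells. In mCherry-negative cells it was log2 -0.06 for Ifih1, -0.38 for Ddx58 and 0.08 for Eif2ak2, and none of these was called. The interaction of transgene and fraction over the 17 libraries with both drivers was -1.42 ± 0.28 SE for Ifih1 (limma adjusted p = 0.00494), -0.81 ± 0.24 SE for Ddx58 (0.036) and -1.44 ± 0.32 SE for Eif2ak2 (0.00866). They were the 3 of 7 members called there, where 12.4% of 16785 genes were called and 5.37% in that direction. Xist, described below, was not a covariate in any fit of this interaction. The Ddx58 call was lost without any 1 of 10 libraries, namely MexHT mCherry-negative replicates 2, 3 and 5, MexHT OSN replicates 3 and 4, HT OSN replicates 2 and 3 and the 3 HT mCherry-negative replicates, with adjusted p from 0.0502 to 0.0952, and with quantile normalization (0.132). All 10 macrophage and immune markers were called in the same direction in this interaction (median log2 -2.73), and their part was not tested.

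In the gg8 mice the 3 genes were also lower in the neurons in both mice. Ifih1 was at 2.15 and 1.97 TPM in OSN and 4.53 and 5.58 TPM in negative cells, Ddx58 at 9.42 and 7.01 against 27.8 and 27.1 TPM, and Eif2ak2 at 4.31 and 9.01 against 13.6 and 12.8 TPM. None of the groups overlapped, which with 2 against 2 libraries was so for 63.6% of all genes. The log2 differences were -0.98 ± 0.49, -1.64 ± 0.44 and -0.96 ± 0.53 SE, and none passed the test (limma adjusted p = 0.219, 0.0683 and 0.262).

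**Figure D3:**
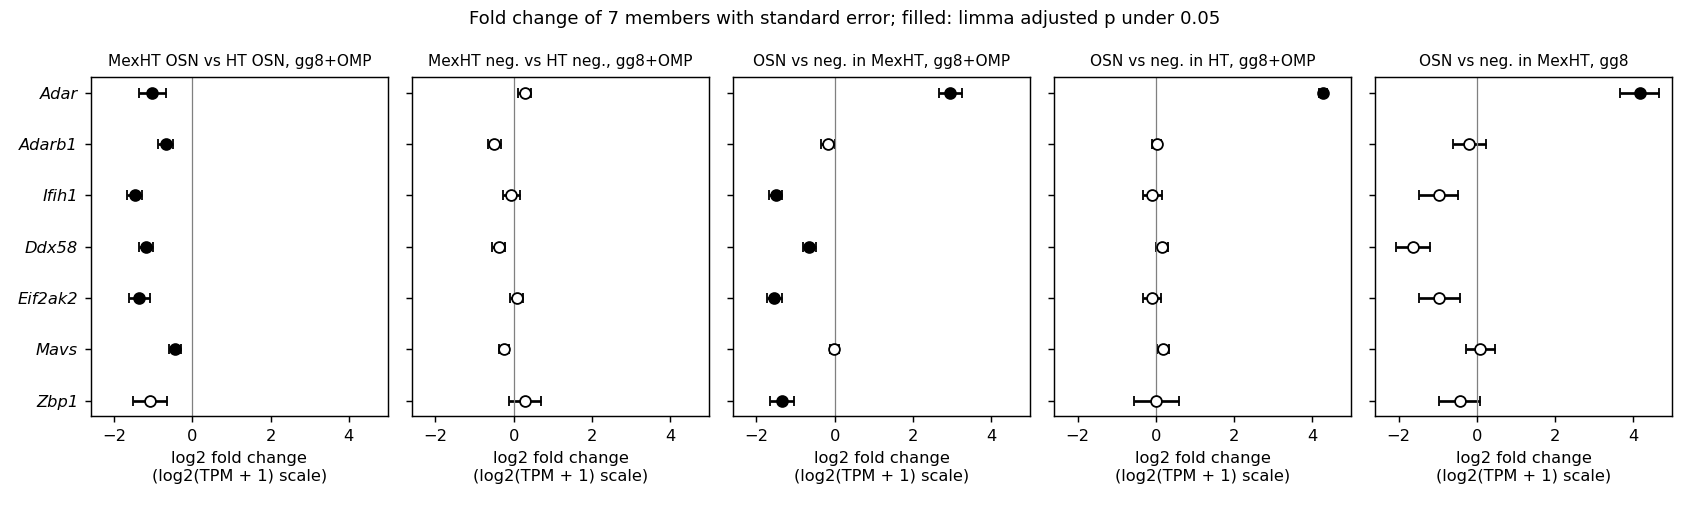
Log2 fold change (horizontal, on the log2(TPM + 1) scale) with its standard error for the 7 members tested, in 5 comparisons, with filled points where the limma adjusted p is under 0.05. Ifih1, Ddx58 and Eif2ak2 lie between -1.54 and -0.65 in the comparisons of MexHT OSN with HT OSN and with MexHT mCherry-negative cells, and between -0.10 and 0.15 in HT mice.

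Immune markers moved with the 3 genes in several of these comparisons. All 10 macrophage and immune markers were lower in MexHT OSN than in HT OSN (median log2 -2.51), and 7 of 10 were lower and 2 higher in MexHT OSN than in the negative cells. None was at 0 in every library of a group, and their part in the result was not tested. Within HT OSN the marker sum was 1344, 1061 and 4674 TPM in replicates 1, 2 and 3. The summed level of the 3 genes in these libraries was 49.7, 46.2 and 52.1 TPM. In the gg8 table the marker sums were 254 and 409 TPM in OSN and 385 and 488 TPM in negative cells, with 3 of 10 markers called lower in OSN (median log2 -0.40), and the 3 genes summed to 15.9 and 18 TPM and to 45.9 and 45.4 TPM. Granulocyte markers (9 genes) summed to 199 to 453 TPM in HT OSN and 6256 to 14993 TPM in HT negative cells, between which the 3 genes did not differ by the test.

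**Figure D4:**
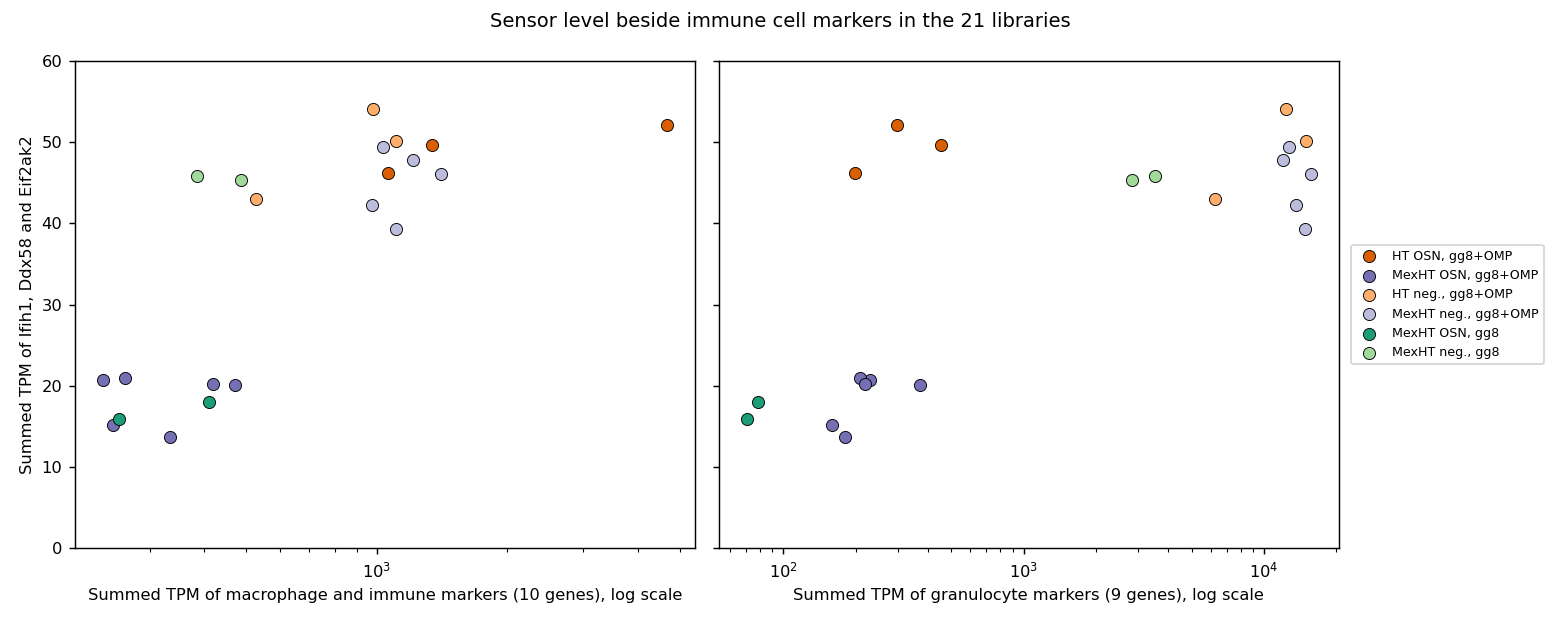
Summed TPM of Ifih1, Ddx58 and Eif2ak2 (vertical) against the summed TPM of 10 macrophage and immune markers (left, log scale) and 9 granulocyte markers (right, log scale) in the 21 libraries, coloured by group. The 8 MexHT OSN libraries lie at 13.7 to 21 TPM and the other 13 at 39.4 to 54 TPM.

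The neurons of the transgenes also differed in maturity markers and in Xist, the X-inactivation transcript of female cells. Of 10 mature OSN markers 9 were lower, and of 8 immature OSN markers 6 were higher, in MexHT OSN than in HT OSN. Their part in the sensor result was not tested. Xist was at 0.126, 60.3 and 0.14 TPM in HT OSN and at 58.4 (lowest), 124.6 (median) and 139.8 (highest) TPM in MexHT OSN. With the Xist level in the model the genes called fell from 36.8% to 2.05% of 16067, and none of the 7 members was called: the log2 difference was -1.25 for Ifih1 (limma adjusted p = 0.0965), -1.29 for Ddx58 (0.0752) and -0.95 for Eif2ak2 (0.261). HT OSN replicate 2, the only HT OSN library with Xist above 1 TPM, had 7.63 TPM of Ifih1, 24.7 TPM of Ddx58 and 13.9 TPM of Eif2ak2, each above all 6 MexHT OSN libraries. With 1 such library, the part of Xist was not tested within HT OSN.

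Mavs (chr2:131234063-131248025, plus strand), the adaptor through which MDA5 and RIG-I signal, varied less. It was at 24.7, 22.5 and 29.4 TPM in HT OSN and at 15.5 (lowest), 18.8 (median) and 21.3 (highest) TPM in MexHT OSN. The groups did not overlap, and the difference was 1.36-fold (log2 -0.44 ± 0.15 SE, limma adjusted p = 0.0377). The call was lost without MexHT OSN replicate 2, 3 or 4 (adjusted p = 0.0684, 0.0691 and 0.0633) and without HT OSN replicate 1, 2 or 3 (0.0974, 0.0541 and 0.135). MexHT OSN and their mCherry-negative cells, at 21.1, 19.6, 17.9, 18.5 and 16 TPM, overlapped (log2 -0.01 ± 0.12 SE, limma adjusted p = 0.931), as did the fractions of HT mice (log2 0.19 ± 0.15 SE, 0.368). In gg8 mice Mavs was at 24.2 TPM in both OSN libraries and at 23.2 and 22.4 TPM in the negative libraries (log2 0.09 ± 0.38 SE, limma adjusted p = 0.89).

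Zbp1 (chr2:173206612-173218959, minus strand), the Z-nucleic acid sensor of necroptosis, was barely detected, on 0 to 41 counts per library. HT OSN had 1.04, 1.58 and 6.45 TPM, the last in replicate 3, the library with the highest immune marker sum. MexHT OSN had 0 (lowest), 0.66 (median) and 1.57 (highest) TPM. The library at 0, replicate 4, had no count, which allows up to 0.555 TPM at a floor of 3 counts. The groups overlapped, and the difference did not pass the test (log2 -1.08 ± 0.43 SE, limma adjusted p = 0.0729). It passed without MexHT OSN replicate 5 (adjusted p = 0.0487) or HT OSN replicate 1 (0.0499).

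Against the MexHT mCherry-negative cells, at 5.44, 1.39, 3.85, 1.85 and 4.36 TPM, Zbp1 was 2.54-fold lower in MexHT OSN (log2 -1.34 ± 0.31 SE, limma adjusted p = 0.00223). The ranges overlapped through OSN replicate 5 and mCherry-negative replicate 2. Immune markers were also lower in these neurons, as given above, and their part was not tested. In HT mice the negative cells had 3.71, 1.03 and 2.98 TPM, with no difference by the test (log2 0.01 ± 0.58 SE, limma adjusted p = 0.989; log2 -0.55 without HT OSN replicate 3). In gg8 mice the values were 0.653 and 1.71 TPM in OSN and 1.31 and 2.57 TPM in negative cells (log2 -0.44 ± 0.52 SE, limma adjusted p = 0.587).

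In all, 6 of the 7 members tested were called lower in MexHT OSN than in HT OSN and none higher, where 16.8% of 16067 genes were called lower and 36.8% in either direction. The libraries of 5 of the 7 did not overlap, all lower, against 16.9% of genes. The members' median log2 difference was -1.08, beside 0.03 over all genes tested. The count fell to 3 without HT OSN replicate 2 or replicate 3, and the 3 were then Ifih1, Ddx58 and Eif2ak2. In mCherry-negative cells none of the 7 was called between the transgenes by limma, where 0% of 16860 genes were called. Of those genes 20.6% had an unadjusted p under 0.05 in the same fit, as had 1 member, Adarb1 (limma unadjusted p = 0.0182). The libraries of 3 of the 7, Adarb1, Ddx58 and Mavs, did not overlap, all lower in MexHT, against 5.07% of genes.

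Between OSN and mCherry-negative cells of MexHT mice with both drivers, 5 of 7 members were called, Adar higher and Ifih1, Ddx58, Eif2ak2 and Zbp1 lower, where 63.4% of all genes were called and 27.6% were lower. With quantile normalization Ddx58 (log2 -0.34, limma adjusted p = 0.0838) and Zbp1 (-0.77, 0.0509) were not called. The share of members called was thus near the background there. The libraries of Ifih1 and Eif2ak2 lay wholly lower, as for 19.6% of genes, and those of Adar wholly higher, as for 23.4%. In HT mice and in gg8 mice Adar was the only member called, where 11.3% and 8.32% of genes were called. With each HT mouse as a replicate block the calls over all genes in HT mice rose from 1923 to 4967, and Adar was still the only member. These comparisons share libraries: the MexHT OSN libraries enter both the comparison with HT OSN and that with their own negative cells.

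In the same comparison of MexHT OSN with HT OSN, 19.9% of all genes were called higher and 16.8% lower, the background for the counts of genes around the ADAR enzymes. Of 7 tested regulators of ADAR enzymes 3 rose and none fell (median log2 -0.05). Among them Aimp2 rose 1.54-fold and Xpo5 1.21-fold. Of 14 other proteins that bind double-stranded RNA, 2 rose and 1 fell, with Ilf2 1.44-fold higher and Strbp 1.53-fold lower. None of the 3 tested deaminase relatives, the tRNA deaminase genes Adat1, Adat2 and Adat3, was called. Of 19 tested transcripts known to be edited, 3 rose and 1 fell, with Unc80 3.38-fold higher and Tmem63b 1.4-fold lower.

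Some of the other sensors and interferon genes were called lower in that comparison, where 16.8% of all genes were. In such short lists, the counts of other sensors, RIG-I and MAVS pathway genes and ZBP1 partners lay near that share. Of 9 tested sensors of double-stranded RNA outside the members 2 fell and none rose, with Tlr3, the endosomal receptor, at 1.23 ± 0.525 TPM (SD, n = 6) in MexHT and 5.96 ± 1.15 TPM (n = 3) in HT OSN (log2 -1.66 ± 0.26 SE, limma adjusted p = 0.0013). Of 10 tested interferon-induced genes 3 fell and none rose (median log2 -0.74): Mx2 5.64-fold, Ifit2 2.81-fold and Ifit1 2.66-fold. Of 9 interferon receptor and signalling genes 4 fell, with the receptor chain Ifngr1 2.97-fold lower. Of 14 genes of the RIG-I and MAVS pathway 3 fell and 1 rose, with Rnf135, the ubiquitin ligase of RIG-I, 1.67-fold lower and Traf6 1.54-fold higher. Of 4 tested partners of ZBP1 in cell death 1 fell. The macrophage markers above moved with these genes too, and their part was not tested.

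Of the other eIF2alpha kinases, Eif2ak3 and Eif2ak1 were called higher in MexHT OSN than in HT OSN, where PKR was lower, and Eif2ak4 was not called. In the list of eIF2alpha kinases and their target 3 of 9 genes rose and 1 fell. Over all genes 19.9% were called higher and 16.8% lower. Eif2ak3, the kinase PERK of the endoplasmic reticulum, was at 111 ± 17 TPM (SD, n = 6) against 65.9 ± 8.44 TPM (n = 3), 1.67-fold higher (log2 0.74 ± 0.14 SE, limma adjusted p = 0.00276). Eif2ak1 rose 1.47-fold and Eif2s2, a subunit of their target, 1.64-fold. Dnajc3, an inhibitor of PKR and PERK, fell 1.78-fold. The interaction of transgene and fraction was 0.79 ± 0.18 SE for Eif2ak3 (limma adjusted p = 0.00993), of opposite sign to that of Eif2ak2.

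Between MexHT OSN and their mCherry-negative cells, where 27.6% of all genes were called lower and 35.8% higher, most death partners and most other sensors were lower in the neurons. Of 5 ZBP1 partners 4 were called lower (median log2 -2.25): Mlkl, the executioner of necroptosis, 8.31-fold, Ripk3 6.4-fold and Casp8 4.76-fold. Of 14 RIG-I and MAVS pathway genes 5 were lower, among them Ikbke (4.53-fold), Irf7 (3.64-fold) and Dhx58 (3.21-fold), and Traf3 was 1.68-fold higher (median of the list log2 -0.10). Of 10 other sensors 7 were lower and 1 higher, of 11 interferon-induced genes 6 were lower and of 9 interferon receptor and signalling genes 4 lower and 1 higher. All 9 granulocyte markers were lower in the same neurons (median log2 -6.16), and their part was not tested. In HT mice granulocyte markers were lower in OSN by a median log2 of -5.26 and 4 of 10 macrophage markers were higher (median 1.28). There, where 11.3% of all genes were called, none of these death partners, none of the other sensors and none of the interferon receptor genes was called, and Ikbke (2.63-fold) and Ifitm3 (11-fold) were lower.

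Among RNA-processing genes in those MexHT neurons the shares called higher lay on both sides of the 35.8% of all genes. Of 14 other double-stranded RNA binders 9 rose and none fell against the mCherry-negative cells, with Zfr2 2.12-fold, Drosha 1.66-fold and Dicer1 1.62-fold higher. All 3 tested Adat genes rose, by 1.28-fold to 1.53-fold. Of 7 ADAR regulators 3 rose and 1, Fmr1, was lower, and of 9 eIF2alpha genes 2 rose and 3 were lower. Of 20 edited transcripts 10 rose and 5 were lower, from Unc80 (2.88-fold higher) and Cacna1d (2.75-fold) to Flna (6.82-fold lower) and Igfbp7 (11.6-fold lower). Flna (5.75-fold) and Igfbp7 (13.7-fold) were also lower in OSN of HT mice, where 371 of 17027 genes were called higher and 1552 lower. There 4 of 17 edited transcripts were called lower and 0 higher, Adat3 was 1.6-fold higher, and 0 of 14 other double-stranded RNA binders were called. In gg8 mice 1187 of 16490 genes were called lower in OSN. There 1 of 18 edited, 1 of 9 interferon receptor and 1 of 10 interferon-induced genes was called, all lower in OSN. These were Igfbp7 (22.1-fold), Ifngr1 (4.09-fold) and Ifit2 (3.96-fold), and in such short lists 1 call lies near the share of all genes.

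Across the 17 libraries with both drivers, which share the differences between groups, the members varied together to different degrees. The log2 levels of Ifih1 and Eif2ak2 correlated with r = 0.91, Ifih1 and Ddx58 with 0.82, and Eif2ak2 and Zbp1 with 0.81. Adarb1 was nearest Ddx58 (0.80). Adar stood apart, with r from -0.52 (Ifih1) to 0.25 (Mavs). These values describe the libraries and were not tested.

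Of 12600 candidate genes, those most like each member by Pearson's r over the 17 libraries were Cndp2 (0.926), Zfp513 and Bin1 for Adar, and Rab37 (0.929), Tmtc1 and Arhgef12 for Adarb1. Those most like Ifih1 were Parp4 (0.969), Samd4 and Nr3c1, and those most like Ddx58 were Tapbp (0.964), Commd8 and Tmem30a. Ccdc9 (0.962), Il1b and Fgl2 were nearest Eif2ak2, Mcur1 (0.928), Ctsa and Pmepa1 nearest Mavs, and Cmtm3 (0.925), Tmem176b and Arap1 nearest Zbp1. Mex3a ranked 5939 for Adar over these libraries (r = 0.312), and HT OSN had high Adar with low Mex3a. For Ddx58 the r with Mex3a was -0.869 and for Ifih1 -0.819.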

How the data were processed

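RNA was sequenced from 21 sorted libraries. The authors deposited 2 tables of TPM values per gene, scaled separately, so tests were made within a table. The submitters' processing notes name FastQC, cutadapt, STAR, bedtools and the build mm10, with no versions or roles. Whether counting used strand is not given in the sources used here. The labels' protocols describe a stranded low-input kit without mention of molecular identifiers. Symbols that had become dates, 27 per file, were left out. Libraries were grouped by genotype and sorted fraction, per the labels.

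TPM steps gave whole counts for 23613 of 23614 and 22775 of 22808 genes, within 0.01 and 0.05 counts. These recovered counts serve as depth and for a floor of 3 counts, which covers counting error only. Each comparison was fitted with limma 3.58.1 (R 4.3.3, empirical Bayes with trend) on log2(TPM + 1), keeping genes whose mean reached 1 TPM in the libraries fitted. P-values were adjusted by Benjamini-Hochberg over all genes tested (threshold 0.05, two-sided), and the fits were tested on simulated data. A log2 fold change understates the change of low genes. Error terms describe the spread between these libraries, 1 mouse each.

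Alternatives were a pseudocount of 0.1, no filter or a minimum of 5 TPM, median-of-ratios scaling, quantile normalization, limma's voom on recovered counts, a replicate block, Xist as a covariate, all groups in 1 fit, and leaving out each library. Xist was a covariate only between the transgenes within a fraction. For voom, library sizes were set by median of ratios, a choice made after seeing the data. It replaced the planned TMM scaling, which was not run. Per the labels, same-numbered OSN and mCherry-negative libraries are 1 mouse. Their deviations from the group means correlated at 0.17 to 0.47 in HT, -0.11 to 0.42 in MexHT and 0.02 in gg8 mice. Same-numbered mCherry-negative libraries of the 2 transgenes correlated at 0.23 to 0.42, with no shared mouse in the labels. MexHT OSN replicate 6 has no negative partner.

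Members and lists were chosen with earlier results of these data known. Genes named from a list were up to 3 per direction and comparison with the largest change past the threshold whose higher group averaged 5 TPM or more. The 3 most like genes per member had a mean of at least 5 TPM and no provisional name. Gene positions and promoters are from RefSeq (GRCm38.p6) and overlaps from GENCODE. RefSeq windows matched 7 of 8 members by symbol. Editing sites were not analysed here, and the values of some list genes are not reported here.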

Additional observations from a re-analysis of the deposited data

Results flagged for a closer look

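Adarb2 in MexHT mCherry-negative replicate 5 was at 0.458 TPM, apart from the other 4 libraries of its group by 0.75 of the group's range on the log2(TPM + 1) scale. The value rests on 10 counts, and of 16 groups examined chance sets about 1 in 20 apart. The difference between MexHT and HT was larger in OSN than in mCherry-negative cells for 3 members, by an interaction test in limma: the log2 interaction was -1.42 for Ifih1 (adjusted p = 0.00494), -0.81 for Ddx58 (adjusted p = 0.036) and -1.44 for Eif2ak2 (adjusted p = 0.00866). For Ifih1 and Eif2ak2 it passed the threshold under all 24 alternatives, with adjusted p from 0.00273 to 0.0188 and from 0.00317 to 0.0329. For Ddx58 it passed under 13 of 24, with adjusted p from 0.0097 to 0.132. None of the 24 held Xist as a covariate, which was fitted only between the transgenes within a fraction.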

How the results depend on the processing

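Of 712 values of single members under an alternative, 635 kept their direction and side of the threshold, 42 lost the call, 11 gained it and 24 changed sign. In MexHT OSN against HT OSN the 6 members called became 0 with Xist as a covariate and 3 to 7 when 1 library was left out. In OSN against mCherry-negative cells of MexHT mice, 5 became 3 under quantile normalization, without Ddx58 and Zbp1, and stayed at 5 without any 1 library. In HT mice 1 stayed at 1, and between mCherry-negative groups 0 stayed at 0. In gg8 mice 1 became 2 with voom and 0 to 2 without a library. In the interaction 3 became 2 to 4 without a library. The Adar and Mex3a correlation without the 2 farthest libraries was 0.940 and no longer passed (n = 4). The cause was not tested, beyond fewer libraries in the fits that left one out.

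The planned voom fit with TMM scaling was not run. The 24 sign changes were all in differences that no fit called. Between mCherry-negative groups Ifih1 gave 0.40 with Xist, and leaving out 1 library gave -0.25 to 0.07 for Ifih1, -0.08 to 0.17 for Eif2ak2 and -0.08 to 0.52 for Zbp1. In MexHT mice Mavs gave 0.12 (quantile) and -0.06 to 0.03 (1 library left out). In HT mice Zbp1 gave -0.03 (pseudocount of 0.1), -0.05 (median-of-ratios), -0.12 (voom) and -0.55 to 0.38 (1 library left out), and Adarb1 -0.05, -0.04 and -0.02 to 0.08 (median-of-ratios, voom, 1 library left out). There Eif2ak2 gave 0.04 and Ifih1 0.28 (quantile), and -0.26 to 0.09 and -0.29 to 0.04 (1 library left out). In gg8 mice Zbp1 gave 0.42 (quantile) and Mavs -0.00 (voom).

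With the replicate block, 4 members were called in MexHT OSN against HT OSN, and over all genes 4801 in place of 5907. Adarb1 (-0.46, adjusted p = 0.14) and Mavs (-0.53, 0.0697) were then not called. The labels give no shared mouse there: same-numbered OSN libraries of the 2 transgenes correlated at 0.11, 0.13 and -0.23, and 1 of 3 HT libraries matched its own number best. Pairing by mouse changed the call of the Adar interaction given above and no other member's call.

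Scaling moved the median of all genes by over 0.1 for OSN against mCherry-negative cells, by -0.13 (median-of-ratios) and -0.14 (voom) in MexHT mice with both drivers and by -0.11 (voom) in gg8 mice. Ifih1, Ddx58, Eif2ak2 and Zbp1 were called lower under both in the former, and Ifih1 and Eif2ak2 also with quantile normalization. The share of calls that were higher was 19.3%, or 30.6% (quantile), 13.8% (median-of-ratios) and 9.83% (voom), for HT OSN against negative cells, and 56.8%, or 49.2%, 40.4% and 35.4% in that order, in the interaction. Adarb2 and Zbp1, at few counts, are limited by depth.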
